A study of Mus musculus with 6 samples.

Results

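Theca cells and granulosa cells make ovarian estrogen together, and 7 genes of that shared route were followed in ovaries of Galt-null and wildtype mice. They were Cyp17a1, Cyb5a and Insl3 of the theca side, Cyp19a1 and Hsd17b1 of the granulosa side, and Srd5a1 and Sult1e1, whose enzymes divert or inactivate the products. The 7 symbols were matched to Ensembl identifiers, and all 7 were found among the 55487 genes of the count table. Of these, 6 passed the filter on low counts that left 16957 genes to test, and Sult1e1 did not.

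Whole ovaries were taken on postnatal day 49 from 3 GalTKO samples, which carry the genotype GalT-/-, and from 3 wildtype samples. All 6 had the background written as cbl/6-ola/129, and all had been given a diet with 2.5% galactose over 4 weeks, so there was no group on a plain diet. The labels do not describe how the Galt allele was made. They give no litter or estrous stage and leave unsaid whether each sample came from its own animal. The p-values then rest on the spread among these 6 samples, part of which may be technical.

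In the follicle, luteinizing hormone acts on theca cells, where cholesterol becomes pregnenolone and then progesterone. CYP17A1, aided by cytochrome b5, turns these into androgens. Androgens pass to granulosa cells, where follicle-stimulating hormone drives aromatase, the product of Cyp19a1, and HSD17B1 converts estrone to the more potent estradiol. The steroidogenic factor NR5A1 and its relative NR5A2 bind the core AAGGTC in many genes of this route.

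The RefSeq promoter table on GRCm38.p6 held windows for 4 of the 7 genes, each from 250 bases before to 50 bases after a start. Insl3 and Sult1e1 are shown because their windows held that core, one in a gene read in every library and one in a gene with almost no reads. Only bases before the annotated exons are printed, 5′ to 3′ on the gene's strand. Capitals mark AAGGTC, or GACCTT where it lies on the other strand.
Insl3 (chr8:71689002-71689213, plus strand): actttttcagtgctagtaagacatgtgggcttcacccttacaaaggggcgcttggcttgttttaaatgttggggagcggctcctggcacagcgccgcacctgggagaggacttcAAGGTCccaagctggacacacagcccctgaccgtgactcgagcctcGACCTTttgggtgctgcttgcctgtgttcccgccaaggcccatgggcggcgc
Sult1e1 (chr5:87591612-87591861, minus strand): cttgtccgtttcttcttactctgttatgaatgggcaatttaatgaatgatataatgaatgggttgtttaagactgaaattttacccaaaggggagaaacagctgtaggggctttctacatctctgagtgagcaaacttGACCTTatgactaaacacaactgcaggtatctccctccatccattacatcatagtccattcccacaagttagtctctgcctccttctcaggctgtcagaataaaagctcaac
The Insl3 stretch held the core 2 times, once on each strand, and the Sult1e1 stretch held it 1 time. Searched on both strands, AAGGTC was present in 12.3% of the 32851 promoter windows of 300 bases, and the longer AAGGTCA, which contains it, in 4.72%. The Sult1e1 match was also a match to AAGGTCA, and neither Insl3 match was. The 3 windows of Cyp19a1 and the window of Srd5a1 held no match, which says only that these letters are not in those windows.

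Library depth ran from 19232486 to 25729564 counts in GalTKO samples and from 23685626 to 24861338 counts in wildtype samples. Galt had 0.155, 0.259 and 0 CPM (counts scaled to a common library size by the trimmed mean of M-values) in GalTKO replicates 1 to 3, against 17.8, 16.1 and 17.4 CPM in wildtype replicates 1 to 3. Across all genes, 433 of 16957 (2.55%) differed between the genotypes at an adjusted p under 0.05 in edgeR's quasi-likelihood test. Ovarian marker genes were present in every library: the 8 oocyte markers summed to between 222.0 and 255.4 CPM in GalTKO samples and between 187.1 and 288.0 CPM in wildtype samples. The fat marker Adipoq had at most 0.0423 CPM in any library, and the oviduct marker Ovgp1 stood at 20.3 CPM in wildtype replicate 2 against at most 0.800 CPM elsewhere. GalTKO replicate 2 stood apart: 24 of 14718 genes with a mean of at least 1 CPM were at least 4-fold below all 5 other libraries there, against 0 to 3 genes for each other library. At least 4-fold above all others were 10 genes in GalTKO replicate 1, 3 in GalTKO replicate 2 and 0 to 2 in each other library. Results that rest on this library are given with and without it.

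None of the 6 tested genes differed between GalTKO and wildtype ovaries with all libraries in the fit. The edgeR count was 0 at an adjusted p under 0.05, where 2.55% of all genes passed (1.13% higher and 1.43% lower), and 0 at an unadjusted p under 0.05, where 17.1% did. DESeq2 called 0 of the 6 (6.19% of all genes), with 2 below an unadjusted p of 0.05 (16.3% of all genes). Limma voom called 0 (3.12% of all genes), with 1 below an unadjusted p of 0.05 (19.3% of all genes). The 3 values of one genotype overlapped those of the other in all 6 genes, while 23.7% of all tested genes had groups that did not overlap. With GalTKO replicate 2 left out, 1 of the 6, Cyp17a1, was called as higher, where 4.26% of all genes were called, 1.83% as higher and 2.43% as lower.

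Cyp17a1, the theca enzyme that makes androgens by 17-hydroxylation and lyase activity (ENSMUSG00000003555; GRCm38 chromosome 19, 46667165 to 46673172, minus strand), split the GalTKO libraries. It reached 399.7, 7.29 and 296.0 CPM in GalTKO replicates 1 to 3, against 119.6, 132.1 and 119.2 CPM in wildtype replicates 1 to 3. Replicates 1 and 3 of GalTKO lay above every wildtype library, at 3.23 and 2.39 times the wildtype mean, and replicate 2 lay 17.0-fold below that mean. The wildtype libraries were close together.
The value of GalTKO replicate 2 rested on 169 counts, against 10326 and 5687 counts in GalTKO replicates 1 and 3 and 2751 to 3123 counts in wildtype libraries. Group means were 234.3 ± 203.3 CPM in GalTKO and 123.6 ± 7.33 CPM in wildtype ovaries (SD, n = 3 each). The log2 fold change was 0.92 ± 1.2 (SE), with a 95% interval of -2.13 to 3.98 (edgeR, adjusted p = 0.757). Without GalTKO replicate 2 it was 1.49 ± 0.13 (edgeR, adjusted p = 0.00095), a call that no other omission of a single library gave, and the other omissions ran from 0.29 to 0.96. The fit without GalTKO replicate 2 compares 2 GalTKO with 3 wildtype libraries, and the library left out was singled out by this gene's value. Under limma voom with all libraries the log2 fold change was 0.43 (adjusted p = 0.846).

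The spread of Cyp17a1 among GalTKO libraries was among the widest in the ovary. Its SD of log2(CPM + 0.1) was 3.21 in GalTKO and 0.084 in wildtype samples, where the median over 14718 genes was 0.178 in GalTKO and 0.125 in wildtype samples. By that SD it ranked 6 of 14718 in GalTKO and 10038 of 14718 in wildtype samples. In GalTKO replicate 2 it had the 4th widest gap below the lowest of the other libraries, at 16.1-fold on the log2(CPM + 0.1) scale. The wide spread of Cyp17a1 in GalTKO was known beforehand, so its GalTKO ranks describe it and test nothing. They rest on GalTKO replicate 2.

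**Figure D1:**
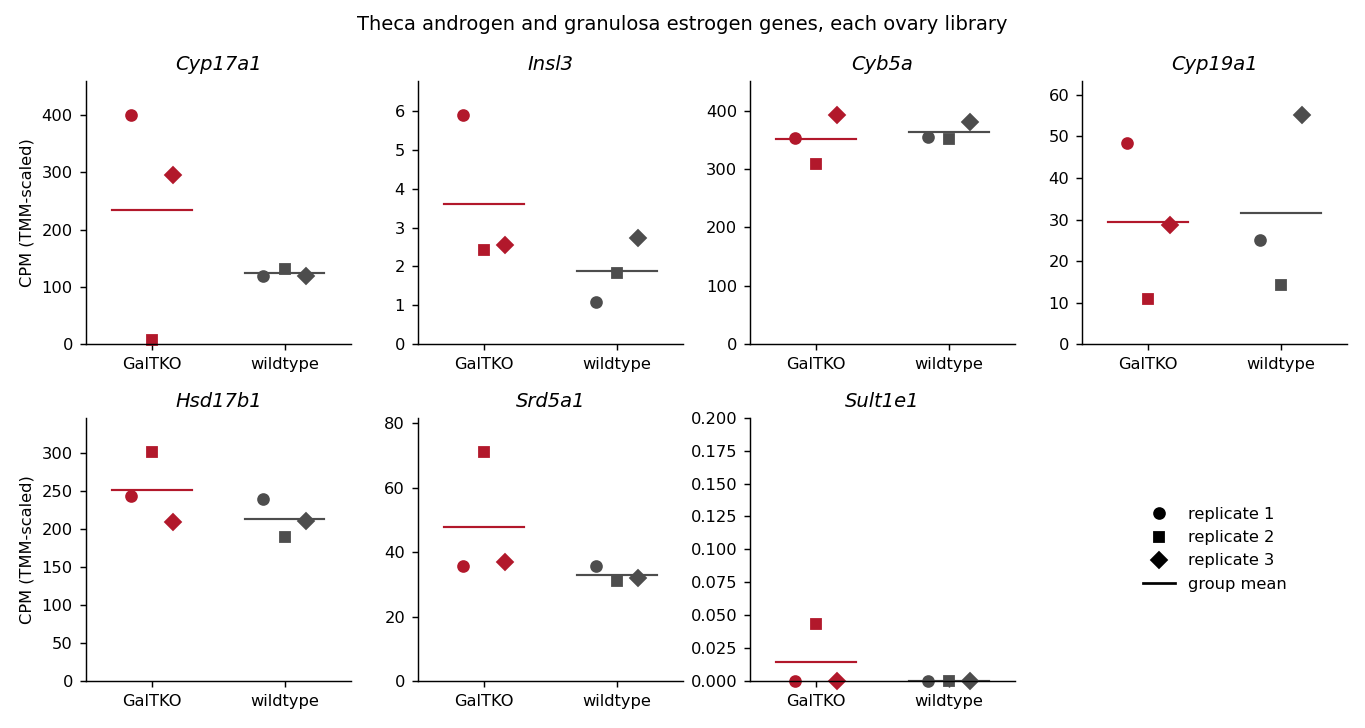
CPM (TMM-scaled, linear axes from 0) of the 7 genes in each library, GalTKO left and wildtype right in each panel, with markers for replicates and lines for group means. Cyp17a1 sits at 399.7 and 296.0 CPM in GalTKO replicates 1 and 3 and at 7.29 CPM in replicate 2, and the groups overlap for each of the 6 genes above the low-count filter.

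Cyb5a, which encodes the cytochrome b5 that favours the lyase step of CYP17A1 (ENSMUSG00000024646; chromosome 18, 84838704 to 84879871, plus strand), did not follow Cyp17a1. It had 353.7, 308.9 and 391.9 CPM in GalTKO replicates 1 to 3, against 355.2, 351.7 and 380.9 CPM in wildtype replicates 1 to 3. GalTKO replicate 2 was again the lowest library, but by a small margin. The log2 fold change was -0.05 ± 0.11 (SE; 95% interval -0.29 to 0.20; edgeR, adjusted p = 0.872), the narrowest interval of the 6.

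Insl3 encodes a relaxin-like peptide hormone of theca cells that signals through RXFP2 (ENSMUSG00000079019; chromosome 8, 71689214 to 71690575, plus strand). It had 5.88, 2.42 and 2.55 CPM in GalTKO replicates 1 to 3, against 1.08, 1.82 and 2.73 CPM in wildtype replicates 1 to 3. GalTKO replicate 1 was the highest library, and the other two lay inside the wildtype range.
The log2 fold change was 0.96 ± 0.45 (SE; 95% interval -0.09 to 2.0; edgeR, adjusted p = 0.336), and it was 0.41 without GalTKO replicate 1. In GalTKO replicate 2 Insl3 was at 1.29 times the wildtype mean, where Cyp17a1 was 17.0-fold below its own. Its counts, 49 to 152 in GalTKO and 27 to 63 in wildtype libraries, are uncertain. In GENCODE M21, 404 of its 623 exonic bases are also exon of Jak3 on the same strand, and the treatment of shared bases in the counting is not stated in the labels. Jak3 itself had 9.89 to 14 CPM in GalTKO and 10.2 to 15.6 CPM in wildtype samples.

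Cyp19a1, the aromatase gene of granulosa cells in large follicles (ENSMUSG00000032274; chromosome 9, 54165937 to 54268110, minus strand), varied as much within a genotype as between them. It had 48.5, 10.9 and 28.6 CPM in GalTKO replicates 1 to 3, against 25.1, 14.3 and 55.1 CPM in wildtype replicates 1 to 3. The lowest value was in GalTKO replicate 2 and the highest in wildtype replicate 3. Group means were 29.3 ± 18.8 CPM in GalTKO and 31.5 ± 21.1 CPM in wildtype ovaries (SD, n = 3 each).
The log2 fold change was -0.10 ± 0.71 (SE; 95% interval -1.90 to 1.70; edgeR, adjusted p = 0.961), and its sign turned without GalTKO replicate 2 (0.30) or wildtype replicate 3 (0.57) and under limma voom (0.45). Among wildtype libraries the SD of log2(CPM + 0.1) was 0.975, rank 67 of 14718 genes, and among GalTKO libraries it was 1.09, rank 217. So the aromatase gene differed between libraries of either genotype, while Cyp17a1 did so among GalTKO libraries.

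Hsd17b1, whose enzyme reduces estrone to estradiol in granulosa cells (ENSMUSG00000019301; chromosome 11, 101078411 to 101080527, plus strand), was steadier. It had 243.1, 300.7 and 209.0 CPM in GalTKO replicates 1 to 3, against 238.6, 189.0 and 209.7 CPM in wildtype replicates 1 to 3. GalTKO replicate 2, the lowest library for Cyp17a1 and Cyp19a1, was the highest here. The log2 fold change was 0.24 ± 0.14 (SE; 95% interval -0.09 to 0.57; edgeR, adjusted p = 0.452). It was 0.09 without GalTKO replicate 2 (edgeR, adjusted p = 0.712) and 0.16 without wildtype replicate 2.

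Srd5a1 encodes steroid 5α-reductase type 1, which reduces progesterone and testosterone (ENSMUSG00000021594; chromosome 13, 69573449 to 69611442, minus strand). It had 35.6, 71.1 and 37.0 CPM in GalTKO replicates 1 to 3, against 35.8, 31.1 and 31.9 CPM in wildtype replicates 1 to 3. GalTKO replicate 2 was at 2.16 times the wildtype mean, and the other two were at 1.08 and 1.12 times. The log2 fold change was 0.54 ± 0.27 (SE; 95% interval -0.09 to 1.18; edgeR, adjusted p = 0.371), and it was 0.14 ± 0.10 without GalTKO replicate 2 (edgeR, adjusted p = 0.468). Gm17108 shares 476 exonic bases with it on the same strand, and had at most 18 counts in a library.

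Sult1e1, the estrogen sulfotransferase gene (ENSMUSG00000029272; chromosome 5, 87575969 to 87591594, minus strand), was at the limit of detection. It had 0, 1 and 0 counts in GalTKO replicates 1 to 3 and 0 counts in each wildtype replicate. A count of 0 allows up to 3 counts, or 0.116 and 0.156 CPM in GalTKO replicates 1 and 3 and 0.120 to 0.130 CPM in wildtype replicates, for counting error only. It was not tested, and no fold is given.

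**Figure D2:**
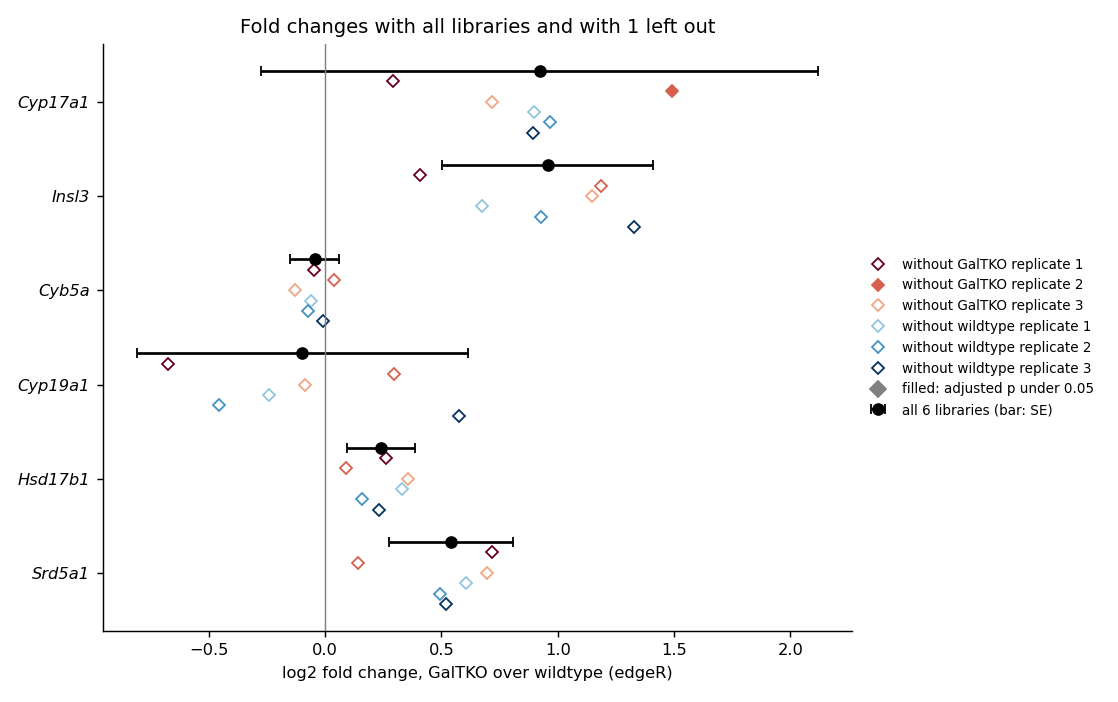
Log2 fold change, GalTKO over wildtype, for the 6 tested genes, with all 6 libraries (black, bar: SE) and with each library left out in turn (diamonds). The single filled diamond, an adjusted p under 0.05, is Cyp17a1 without GalTKO replicate 2 at 1.49, and Cyp19a1 falls on both sides of 0.

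Per kilobase of exon, the order of transcript levels by group mean over all libraries was the same in both genotypes: Hsd17b1, Cyb5a, Cyp17a1, Srd5a1, Cyp19a1, Insl3 and Sult1e1. Hsd17b1 averaged 187.4 ± 34.6 CPM per kilobase in GalTKO and 158.6 ± 18.6 in wildtype ovaries (SD, n = 3 each). Cyb5a averaged 113.2 ± 13.4 and Cyp17a1 84.6 ± 73.4 CPM per kilobase in GalTKO, against 116.8 ± 5.13 and 44.6 ± 2.65 in wildtype ovaries. Srd5a1 stood at 16.5 ± 6.91, Cyp19a1 at 6.48 ± 4.16 and Insl3 at 5.80 ± 3.15 CPM per kilobase in GalTKO, against 11.3 ± 0.86, 6.96 ± 4.67 and 3.01 ± 1.33 in wildtype ovaries.
Without GalTKO replicate 2 the GalTKO order changed, with Cyp17a1 at a mean of 125.6 CPM per kilobase above Cyb5a at 120.1. In GalTKO samples the ranges overlapped for the neighbours Cyb5a and Cyp17a1, Cyp17a1 and Srd5a1, and Cyp19a1 and Insl3. In wildtype samples they overlapped for Srd5a1 and Cyp19a1 and for Cyp19a1 and Insl3. Both orders take the merged exon length, so the Insl3 level would be understated if shared bases went uncounted.

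Ratios within a library remove depth. Cyp19a1 to Cyp17a1 sets a granulosa gene against a theca gene. Insl3 to Cyp17a1 stays within the theca side, and Hsd17b1 to Cyp19a1 within the granulosa side. The Cyp19a1 to Cyp17a1 ratio of levels per kilobase was 0.0744, 0.909 and 0.0594 in GalTKO replicates 1 to 3, against 0.129, 0.0665 and 0.283 in wildtype replicates 1 to 3. The Insl3 to Cyp17a1 ratio was 0.0665, 1.51 and 0.0398 in GalTKO replicates 1 to 3, against 0.0438, 0.0645 and 0.105 in wildtype replicates 1 to 3. For Hsd17b1 to Cyp19a1 it was 16.9, 92.6 and 24.6 in GalTKO replicates 1 to 3, against 32.0, 44.5 and 12.8 in wildtype replicates 1 to 3. GalTKO replicate 2 held the highest value of all 3 ratios, but these share genes. Its low Cyp17a1 is the denominator of the first and second, and its low Cyp19a1 that of the third. The ratios therefore restate the values of the single genes.
The differences of mean log2 ratios, GalTKO minus wildtype, were 0.24, 1.25 and 0.36 for the 3 ratios in that order. Exact two-sided permutation tests (n = 3 per group) gave p = 0.9, 0.8 and 0.7, each 0.9 after Benjamini-Hochberg adjustment over the 3 ratios, where 0.1 is the smallest p such a test can give. Without GalTKO replicate 2 the differences were -1.02, -0.38 and -0.37. For the first ratio it was -0.27 without wildtype replicate 2, and for the third it was -0.16 without wildtype replicate 3.

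**Figure D3:**
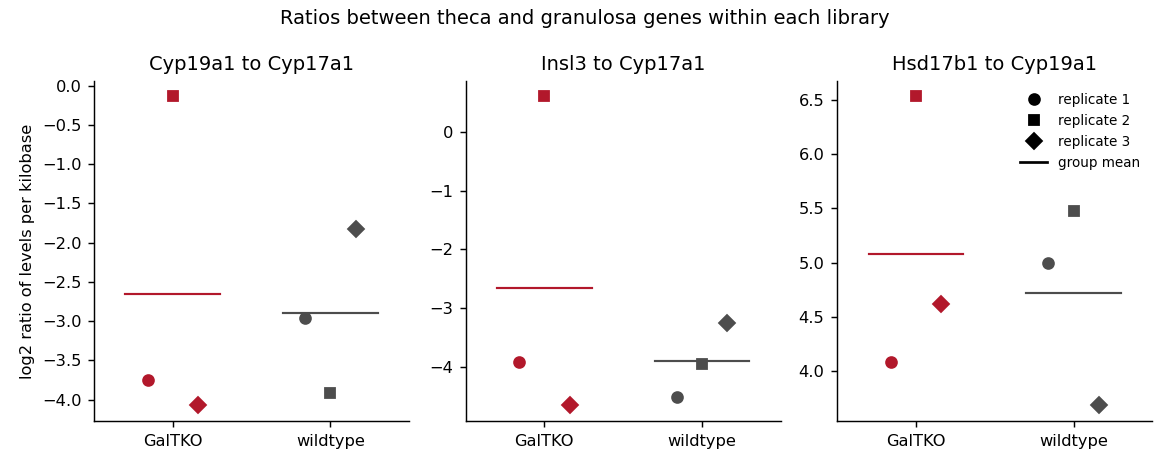
Log2 ratio of levels per kilobase in each library for 3 pairs of genes, GalTKO left and wildtype right, with lines for group means. GalTKO replicate 2 (square), with low Cyp17a1 and Cyp19a1 as denominators, is the highest point in each panel. The differences of means are 0.24, 1.25 and 0.36.

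The other genes of the route were described from lists, by counts and medians beside those of all tested genes. Over all tested genes the median log2 fold change was 0.02 and edgeR called 2.55%, with 17.1% below an unadjusted p of 0.05. DESeq2 called 6.19% and limma voom 3.12% of all tested genes. These shares stand beside each list count below. In whole ovaries fewer cells of a type and less RNA per cell cannot be told apart. Among 15 tested genes of the list of other synthesis genes, 0 were higher, 1 was lower and 14 did not pass, with a median log2 fold change of -0.19. In edgeR 6 of the 15 were below an unadjusted p of 0.05, and DESeq2 called 3 and limma voom 2. The gene that fell was Star, which carries cholesterol into mitochondria, at 626.2, 617.0 and 968.6 CPM in GalTKO replicates 1 to 3, against 1506, 1478 and 1858 CPM in wildtype replicates 1 to 3. Its log2 fold change was -1.13 ± 0.19 (SE; edgeR, adjusted p = 0.0263). The call was lost without GalTKO replicate 1 or without wildtype replicate 1, 2 or 3, with adjusted p up to 0.0906.
Cyp11a1, which makes pregnenolone, had a log2 fold change of -0.69 ± 0.21 (edgeR, adjusted p = 0.149). For Hsd3b1, the next step to progesterone, it was -0.60 ± 0.23 (0.245), and for Fdx1, the ferredoxin that feeds electrons to CYP11A1, -0.53 ± 0.20 (0.24). Of these 4 genes Star alone was called in edgeR, and DESeq2 also called Cyp11a1 (adjusted p = 0.0147). Hsd3b6, named after its values were seen, stood at 0.30 (edgeR, adjusted p = 0.744) and at most 1.29 CPM. The list of 12 luteal cell markers holds Star, Cyp11a1 and Hsd3b1 too, and Star was its 1 called gene in edgeR. Its median log2 fold change was -0.48, with 9 of the 12 negative and 5 below an unadjusted p of 0.05 in edgeR. DESeq2 called 4 of the 12 and limma voom 2, and edgeR called 3 without GalTKO replicate 2. The list has 9 genes besides Star, Cyp11a1 and Hsd3b1, a subset taken after the values were seen. Of these, 6 had a negative log2 fold change and edgeR called 0, with 2 below an unadjusted p of 0.05, while DESeq2 called 2 and limma voom 1. Without GalTKO replicate 2, edgeR called 2 of the 9. Their summed level was 5484, 2273 and 7177 CPM in GalTKO replicates 1 to 3, against 6832, 6644 and 7859 CPM in wildtype replicates 1 to 3. These groups overlapped, with GalTKO replicate 2 lowest, and the part of luteal markers in the values above was not tested.

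Hsd17b7, an enzyme of estradiol and of cholesterol synthesis, had 262.6, 79.6 and 631.6 CPM in GalTKO replicates 1 to 3, against 508.4, 690.1 and 908.5 CPM in wildtype replicates 1 to 3. It was lowest in GalTKO replicate 2, as Cyp17a1 and Cyp19a1 were, and its log2 fold change was -1.11 ± 0.75 (SE; edgeR, adjusted p = 0.526). Without GalTKO replicate 2 it was -0.65 (edgeR, adjusted p = 0.49), and without GalTKO replicate 3 it was -2.04 (0.218). Akr1c14, a 3α-hydroxysteroid dehydrogenase gene, had 278.3, 248.6 and 333.6 CPM in GalTKO replicates 1 to 3, against 415.8, 404.2 and 405.1 CPM in wildtype replicates 1 to 3. These groups did not overlap, but the adjusted p was 0.0646 (edgeR; log2 fold change -0.51 ± 0.11, SE), and the gene passed in edgeR without GalTKO replicate 3 (adjusted p = 0.0236) and with no low-count filter (0.00237). It also passed in DESeq2 (0.00312) and limma voom (0.0348). Hsd17b12 stood at -0.30 ± 0.11 (edgeR, adjusted p = 0.218).

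Of 7 tested genes of steroid inactivation and further reduction, edgeR called 0 and had 2 below an unadjusted p of 0.05, while DESeq2 called 1 and limma voom 0. The median log2 fold change was 0.17. Srd5a3, a relative of Srd5a1, stood at -0.40 ± 0.10 (SE; edgeR, adjusted p = 0.093) and was the gene that DESeq2 called (adjusted p = 0.0332). Hsd17b4, which oxidises estradiol, stood at 0.20 ± 0.07 (SE; edgeR, adjusted p = 0.211).

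For 7 tested receptor genes of the route, edgeR, DESeq2 and limma voom each called 0, and edgeR had 1 below an unadjusted p of 0.05. The luteinizing hormone receptor gene Lhcgr, read by theca, luteal and late granulosa cells, had 352.0, 236.0 and 967.4 CPM in GalTKO replicates 1 to 3, against 825.1, 1276 and 2044 CPM in wildtype replicates 1 to 3. GalTKO replicates 1 and 2 lay below every wildtype library and replicate 3 within their range (log2 fold change -1.41 ± 0.63, SE; edgeR, adjusted p = 0.34). Cyp17a1, a target of that receptor's signal, was above all wildtype samples in the first of these libraries and below them in the second. Fshr, the follicle-stimulating hormone receptor gene, stood at 0.55 ± 0.20 (SE; edgeR, adjusted p = 0.231) and passed without GalTKO replicate 2 (0.73, adjusted p = 0.0377). The median over the 7 was 0.07.

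Among 14 transcription factors of steroidogenic genes, 1 was lower and 13 did not pass, with a median log2 fold change of -0.13. In edgeR 5 of the 14 were below an unadjusted p of 0.05, and DESeq2 called 3 and limma voom 1. Nr5a2 fell, at 532.4, 623.4 and 541.0 CPM in GalTKO replicates 1 to 3, against 872.6, 763.6 and 1005 CPM in wildtype replicates 1 to 3 (log2 fold change -0.64 ± 0.13, SE; edgeR, adjusted p = 0.0425). That call held without GalTKO replicate 2 and was lost in each of the 5 other omissions, with adjusted p up to 0.135. Nr5a1, named here after its values were seen, averaged 255.8 ± 19.8 CPM in GalTKO and 245.6 ± 24.7 CPM in wildtype ovaries (SD, n = 3 each). Gata6 stood at -0.47 ± 0.13 (SE; edgeR, adjusted p = 0.12), Runx2 at -0.88 ± 0.28 (0.183; DESeq2, 0.0105) and Foxl2, a granulosa identity factor, at -0.27 ± 0.10 (0.224).

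**Figure D4:**
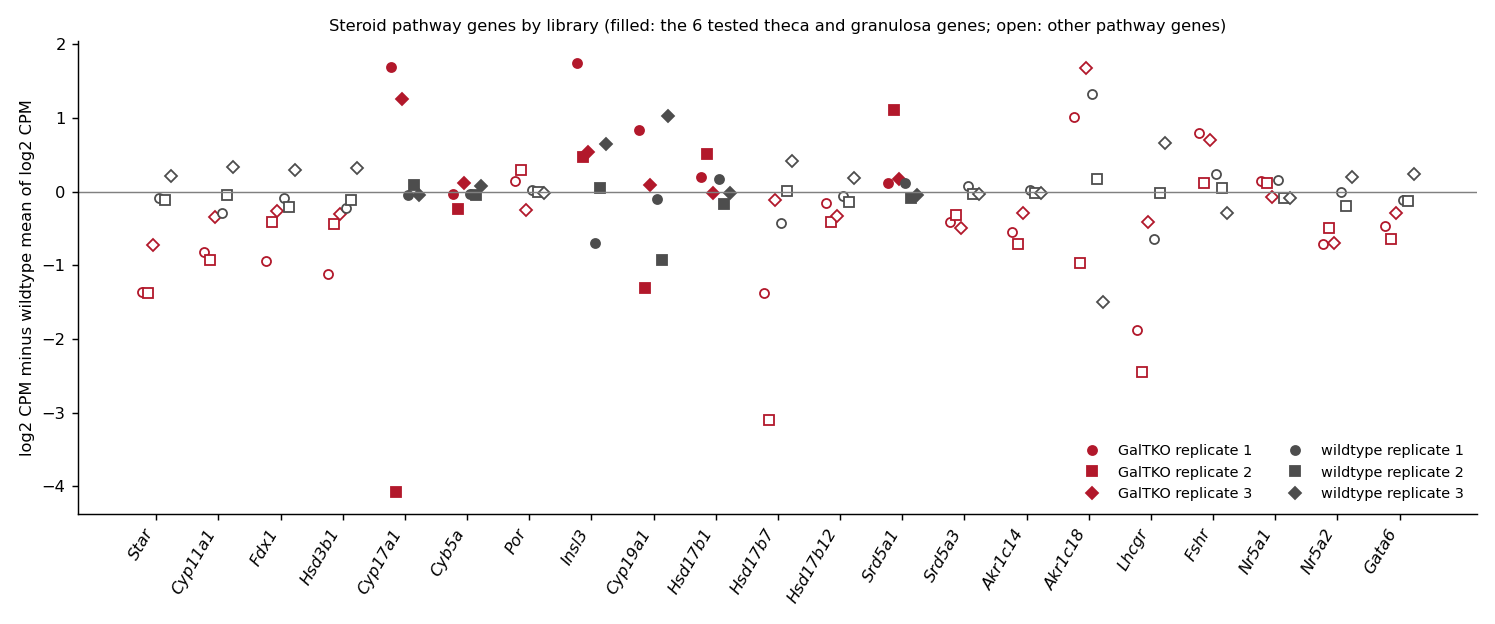
Log2 CPM of each library minus the mean log2 CPM of the wildtype libraries, for genes ordered from cholesterol import to estrogen and androgen metabolism, then receptors and transcription factors. GalTKO replicate 2 (red square) is lowest for Star, Cyp11a1, Cyp17a1, Cyb5a, Cyp19a1, Hsd17b7, Hsd17b12, Akr1c14, Lhcgr and Gata6. It is highest for Por, Hsd17b1 and Srd5a1. All GalTKO points lie below the wildtype points for Star, Cyp11a1, Fdx1, Hsd3b1, Hsd17b12, Srd5a3, Akr1c14, Nr5a2 and Gata6. Of these, edgeR called Star and Nr5a2. Groups did not overlap, in either direction, for 23.7% of all tested genes.

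Cell type markers were set beside the member values. Of 10 theca markers, edgeR, DESeq2 and limma voom each called 0, and edgeR had 1 below an unadjusted p of 0.05. Their median log2 fold change was -0.02, and their summed level was 2669, 3226 and 2869 CPM in GalTKO replicates 1 to 3, against 3037, 3648 and 4284 CPM in wildtype replicates 1 to 3. The highest GalTKO sum, in replicate 2, was carried by Aldh1a1, at 2028 CPM there. The 9 other theca markers, again taken after the values were seen, summed to 1313, 1198 and 1754 CPM in GalTKO replicates 1 to 3, against 1811, 2161 and 2833 CPM in wildtype replicates 1 to 3, and Lhcgr is one of them. Over these 9, GalTKO replicate 2 was the lowest library. That rank, and the gap between the genotypes in this sum, rested on Lhcgr. The sum of the 9 leans on Lhcgr, at 236.0 CPM in that library against 352.0 to 2044 CPM in the others. Another of the 9, Nr2f2, was highest there, at 368.1 CPM, so the sum does not describe the 9 alike. GalTKO replicate 2 was the lowest of the 6 for 4 of 10 theca markers and for 6 of 11 luteal markers. It was also the lowest for 7 of 14 other synthesis genes and for 20.2% of all 14718 genes. These lists share genes, such as Lhcgr and Star, and the same library was highest for 2 theca, 2 luteal and 3 synthesis genes. Among other lists it was lowest for 5 of 14 transcription factors, 2 of 14 granulosa markers, 1 of 7 receptor genes and 0 of 9 mitochondrial genes. The part of these markers in the Cyp17a1 value was not tested.

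Granulosa markers moved both ways: of 14 tested, 2 were higher, 1 was lower and 11 did not pass, with a median log2 fold change of 0.07. In edgeR 10 of the 14 were below an unadjusted p of 0.05 (17.1% of all genes). DESeq2 called 5 (6.19% of all genes) and limma voom 3 (3.12%). Amh, the hormone of growing follicles, rose by 0.76 ± 0.12 and Slc18a2 by 0.77 ± 0.14 (log2, SE; edgeR, adjusted p = 0.0214 and 0.0280), and the lower gene was Nr5a2. Amh lost its call without GalTKO replicate 1 or wildtype replicate 1 or 2 (adjusted p up to 0.0697), and Slc18a2 without GalTKO replicate 1 or wildtype replicate 1 or 3 (up to 0.12). The sum of the 14 markers was 9244 to 10900 CPM in GalTKO and 8948 to 10490 CPM in wildtype samples. For 9 tested ovulatory response genes edgeR, DESeq2 and limma voom each called 0, and edgeR had 2 below an unadjusted p of 0.05. Without GalTKO replicate 2, 1 was called as lower. The summed level of all 12 listed genes was 441.8 to 559.3 CPM in GalTKO and 364.7 to 424.8 CPM in wildtype samples. Much of it was Rgs2, at 249.9 to 419.3 CPM in GalTKO and 177.3 to 261.4 CPM in wildtype samples. Adamts1 reached 167.2 CPM in GalTKO replicate 2. Cited4 went the other way, at 49.1 to 76.6 CPM in GalTKO and 80.8 to 94.6 CPM in wildtype samples.

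All 7 macrophage markers had a negative log2 fold change, 5 of them called, and mitochondrially encoded genes all had a positive one, 1 of 9 called. DESeq2 called 6 of the 9 and limma voom 1, and 6 were below an unadjusted p of 0.05 in edgeR. Of the macrophage markers, DESeq2 and limma voom each called 6. The summed macrophage level was 205.9 to 230.1 CPM in GalTKO and 339.3 to 410.3 CPM in wildtype samples, and that of the mitochondrial genes was 18386 to 28788 CPM in GalTKO and 12027 to 16837 CPM in wildtype samples. Their part in the values of the 7 genes was not tested. Among 3 tested adipose markers Plin1, a lipid droplet coat gene that steroidogenic cells also use, rose (log2 fold change 1.06 ± 0.13, SE; edgeR, adjusted p = 0.00617). Of 8 oocyte, 3 adrenal and 2 oviduct markers tested, edgeR called 0 and had 1, 1 and 0 below an unadjusted p of 0.05, and DESeq2 called 1, 1 and 0. Limma voom called 0 in these 3 lists.

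The genes closest to Cyp17a1 in profile were found by the root-mean-square difference of log2(CPM + 0.1), each gene centred on its mean over the 6 libraries, among 13094 protein-coding genes. They were Pdzrn4 at 0.68, Saa2 at 0.72, Sfrp4 at 0.76, Tnfrsf9 at 0.80 and Bdkrb2 at 0.91. Sfrp4, which encodes a secreted Wnt-binding protein, had 1965, 175.8 and 1699 CPM in GalTKO replicates 1 to 3, against 1549, 1534 and 1157 CPM in wildtype replicates 1 to 3. Pdzrn4 had 22.0, 0.647 and 8.33 CPM in GalTKO replicates 1 to 3, against 3.64, 4.65 and 3.08 CPM in wildtype replicates 1 to 3. Like Cyp17a1, 4 of the 5 were at least 4-fold below every other library in GalTKO replicate 2, which the choice by profile favours. Saa2 and Bdkrb2 were near the floor there, at 0.043 and 0.086 CPM. None of the 5 had an adjusted p under 0.05 with all libraries or without GalTKO replicate 2 in edgeR.

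For Cyp19a1, near profiles were those of Kcne2, Epha8, Trpc5 and Cish, at 0.34 to 0.45. Cish, a feedback inhibitor of cytokine signalling, had 54.4, 14.8 and 37.6 CPM in GalTKO replicates 1 to 3, against 34.4, 38.1 and 124.5 CPM in wildtype replicates 1 to 3. Insl3 was nearest to Aqp5, Tnnt1, Kcnn1, Bves and Sec14l2, at 0.25 to 0.35. The flat profile of Hsd17b1 was nearest to Slc5a6, Gk5, Sult5a1, Il1rap and Pwwp2b, at 0.04 to 0.06. A small difference over 6 libraries describes likeness alone, and a flat profile is shared by many genes.

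**Figure D5:**
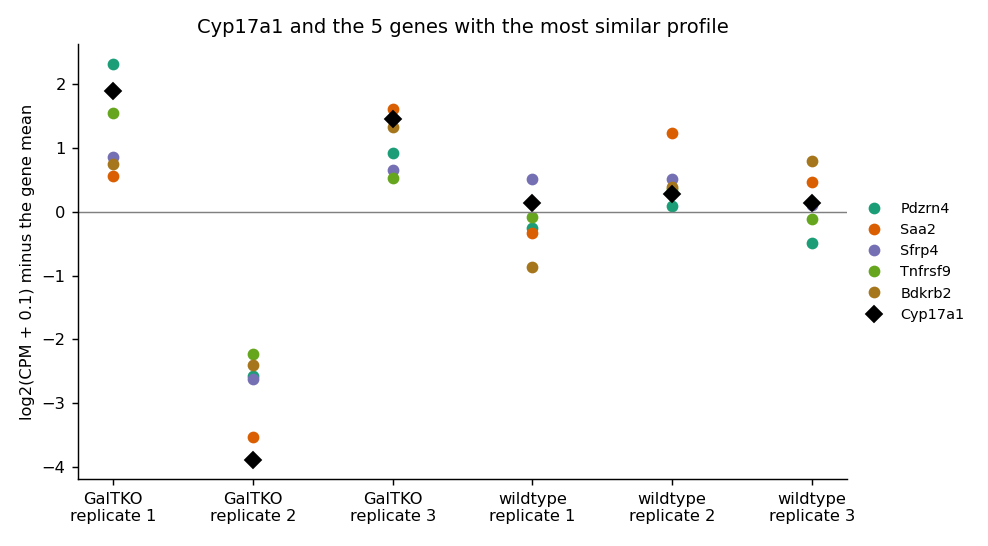
Log2(CPM + 0.1) minus each gene's mean, by library, for Cyp17a1 (black diamonds) and the 5 protein-coding genes with the smallest root-mean-square difference from it, 0.68 to 0.91. All 6 genes are lowest in GalTKO replicate 2, which the choice by profile favours.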

How the data were processed

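Ovary RNA of 3 GalTKO and 3 wildtype samples was sequenced. Per the labels' protocols, Ribo-Zero Gold depleted the total RNA of ribosomal species before stranded TruSeq library preparation. The deposited table holds unnormalized whole-number counts for each Ensembl gene. The submitters' processing notes name cutadapt 1.16, STAR 2.7.6a, featureCounts 1.6.3, DESeq2 1.30.1 and GRCm38. No source used here gives the annotation, the strand setting or the treatment of shared reads. Samples were grouped by title.

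GENCODE M21 (GRCm38) matched 55227 of 55487 identifiers. Counts were tested in R 4.3.3 with edgeR 4.0.16: filterByExpr (minimum count 10, minimum total 15), TMM scaling, a robust quasi-likelihood fit with genotype as the only term, and Benjamini-Hochberg adjustment over 16957 genes (threshold 0.05, two-sided). SE is the log2 fold change over the square root of F, and intervals are at 95%. The common biological coefficient of variation was 17.4%. CPM uses TMM-scaled sizes and the merged exon length for levels per kilobase. Ratios took a pseudocount of 0.1 CPM and an exact permutation test. No pair of libraries within a genotype agreed within sampling noise (chi-square per degree of freedom at least 13.1). Intervals from a count of 0 cover counting error only.

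The 7 genes, the 14 gene lists and the naming rule were chosen with earlier results of these data known. The rule named the 7 genes, Galt, genes overlapping them, up to 4 genes a list by p (8 for synthesis, 6 for receptors) and the 5 nearest profiles (mean of at least 1 CPM). One item that the rule named is not reported here. Of 141 list entries, 128 of 130 different symbols were found. The alternatives comprised scaling by median of ratios or upper quartile, no filter, 1 CPM in 3 libraries, DESeq2 1.42.0, limma 3.58.1 voom with quality weights, a replicate block, an adjusted p of 0.1, RLE scaling and a pseudocount of 0.5 CPM for ratios, and each library left out. The gene test was tested on simulated data. Python 3.11.15 was used for tables and figures.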

Additional observations from a re-analysis of the deposited data

How the results depend on the processing

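The count of the 7 genes called was 0 under every alternative except the fit without GalTKO replicate 2, where it was 1 (leaving out 1 library: 0 to 1). Their log2 fold changes kept direction and side of the threshold in 73 of 78 refits. Turned in sign were Cyp19a1 under limma voom (0.45) and with 1 library left out (-0.68 to 0.57), and Cyb5a with 1 library left out (-0.13 to 0.040). Of the ratio differences with 1 library left out, Cyp19a1 to Cyp17a1 ran from -1.02 to 0.95, Insl3 to Cyp17a1 from -0.38 to 2.25 and Hsd17b1 to Cyp19a1 from -0.37 to 0.86. The number of changed genes, 433, was 1049 with DESeq2, 877 with no filter, 761 at an adjusted p under 0.1, and 165 to 742 with 1 library left out. The 11 changed genes of the lists were 28, 20 and 18 under those 3 settings, and 4 to 16 with 1 library left out; the cause was not tested. With the replicate block, 321 genes, 0 of the 7 genes and 13 list genes were called, Nr5a2 lost its call (adjusted p = 0.0986), Runx2 gained one (0.0248), and the log2 fold change of Cyp17a1 was 0.15. The labels do not say whether equal numbers pair the samples, and the correlations below cannot decide it with 3 libraries a group. Deviations of same-numbered libraries correlated at 0.12, -0.04 and 0.09, and those of differently numbered ones at -0.14 to 0.03. With 3 libraries a group, differences as wide as the intervals of Cyp17a1 and Cyp19a1 were not resolved.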
